A study of Mus musculus with 12 samples.

Results

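The 9 genes described here are the mouse genes F3, F7, F10 and F5 of the extrinsic and common pathways of coagulation, the anticoagulant receptor genes Thbd and Procr, and the plasminogen activator genes Plau, Plaur and Plat. They were taken by symbol from the 17920 genes listed for each of 12 lung libraries, with earlier results of these data known. Of the 9, 8 reached 0.5 FPKM in at least 3 libraries and were tested with 13735 genes in all. Each of these 8 was above 0.5 FPKM in all 12 libraries, so none was admitted through 1 group. F5 was below that level everywhere. FPKM is the deposited expression level, scaled by the authors to gene length and library size.

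Lung polyadenylated RNA was sequenced from male BALB/c mice aged 6 to 8 weeks, with 3 mice and 1 library per mouse in each of 4 groups, out of 6 mice per group in the study. The LPS+bLF group had lipopolysaccharide together with bovine lactoferrin. The LPS group had 50 µL of lipopolysaccharide at 1 µg/µL, and lipopolysaccharide is the outer membrane component of Gram-negative bacteria. The bLF group had 200 mg/kg per day of bovine lactoferrin, a milk glycoprotein that binds iron. The control group had neither agent. Lungs of every group were collected after 14 days. The labels do not give the route or day of LPS, nor a vehicle for the controls.

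Coagulation in damaged or inflamed tissue starts when tissue factor (the F3 product) on a cell surface binds circulating factor VII (F7) and the complex activates factor X (F10), which with its cofactor factor V (F5) forms thrombin. Endothelial thrombomodulin (Thbd) turns thrombin from a procoagulant into the activator of protein C, a step enhanced by the endothelial protein C receptor (Procr), and activated protein C inactivates factor V. Fibrin is removed by plasmin, made from plasminogen by tissue-type activator (Plat) and by urokinase (Plau), which is held at the cell surface by its receptor (Plaur). In the lung, fibrin deposited in the airspaces is a known feature of acute injury, and alveolar macrophages and epithelium are known local sources of tissue factor and urokinase.

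The libraries held 16714327 to 17820645 estimated counts each. LPS replicate 1 stood apart, with 3067 genes at 0 against 1499 to 1963 in the other 11, and with the highest summed neutrophil markers, 1540 FPKM against 186 to 614 in the others. That neutrophil sum was mostly S100a9 and Retnlg, while S100a8, Csf3r, Cxcr2 and Ly6g lay within the control range. Results that rest on this library are given with and without it. Brown fat markers were high in LPS+bLF replicate 2, bLF replicate 1 and control replicate 1, at summed levels of 15100, 4030 and 9140 FPKM, and at most 153 FPKM in the other 9. Cardiac muscle markers summed to 2960 FPKM in LPS+bLF replicate 2 and 3900 FPKM in bLF replicate 1, and at most 738 FPKM elsewhere. LPS+bLF replicate 3 held skeletal muscle markers at 3210 FPKM and basal and squamous epithelium markers at 234 FPKM. Other libraries held at most 180 and 14.5 FPKM of these. The part of such tissue in the member values was not tested. Control replicate 2 held 4106263 of its 17249537 counts on Scgb1a1, the club cell secretoglobin, which lowers the FPKM of other genes in that library. TMM factors, which scale libraries for composition, were 0.923 in control replicate 2 and lowest in LPS replicate 1, at 0.854. FPKM in both libraries thus run low against values on the TMM scale. The lung markers Sftpc and Pecam1 were at no less than 43000.3 and 152 FPKM in every library. P-values set each group difference against a spread between mice that was estimated over the 4 groups together.

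Per gene length, the most abundant of the 9 mRNAs were the urokinase receptor Plaur, with a median of 80.6 FPKM over the 12 libraries, and thrombomodulin Thbd, with a median of 68.5 FPKM. F3, Plau, Procr and F7 followed with medians of 22.6, 16.9, 11.2 and 9.65 FPKM. Plat and F10 had medians of 3.25 and 2.38 FPKM, and F5 of 0.10 FPKM. By these medians the receptors and cofactors anchored on cells outranked the secreted factors VII, X and V. Library by library, F7 exceeded Procr in all 3 LPS lungs and in LPS+bLF replicate 3. Neighbours in this order were not always separable. Plaur exceeded Thbd in 8 of 12 libraries, Procr exceeded F7 in 8 and Plat exceeded F10 in 9. F3 exceeded Plau in 12 of 12, and F7 exceeded Plat in 12 of 12. Procr varied least, with a coefficient of variation of 11.9% over the libraries, and Plat and F10 varied most among the tested genes, at 54.4% and 48.1%.

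**Figure D1:**
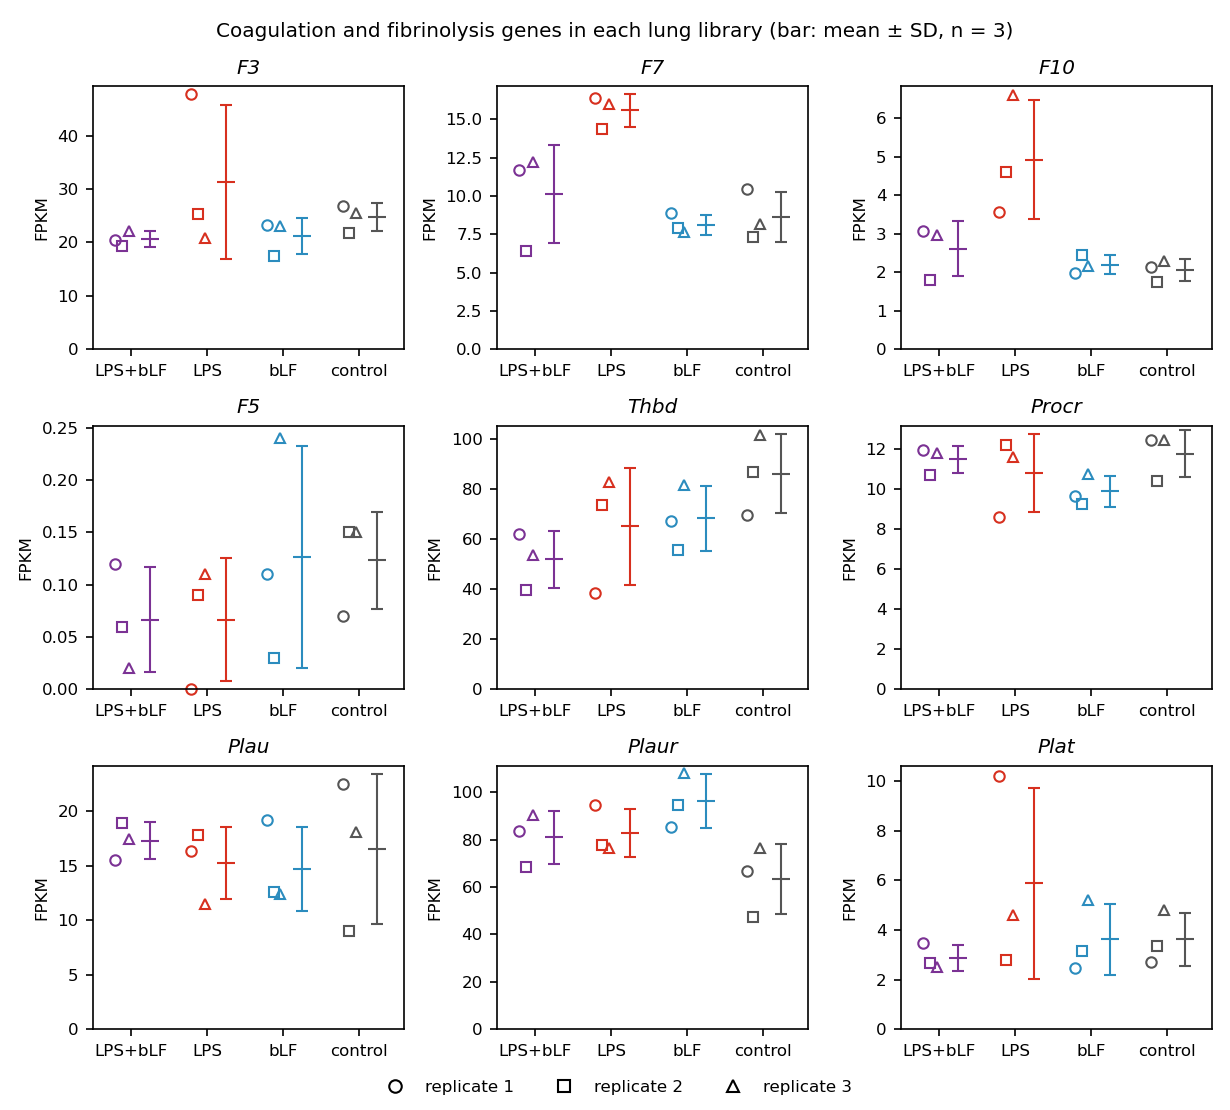
Each panel plots the FPKM of 1 gene (y axis, starting at 0 and scaled for each gene) in the LPS+bLF, LPS, bLF and control lungs; symbols are the 3 replicates and bars the mean ± SD of 3 libraries. F7 and F10 in LPS lungs lie above every other library, at no less than 14.4 and 3.57 FPKM, while the LPS bars of F3 and Plat are stretched by replicate 1 at 47.8 and 10.2 FPKM.

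In LPS lungs against control lungs, the genes of factors VII and X were the members that stood highest above the controls, with fitted fold changes of 1.91 for F7 and 2.48 for F10. Plaur was next in the strength of its test, at 1.40-fold. Thbd was lower, at 0.761-fold, and Procr and Plau were near 1. None of the 8 tested members was called by edgeR at an adjusted p under 0.05 in this comparison, where 0% of the 13735 genes were called. At an unadjusted p under 0.05, 3 of the 8 members were higher (F7, F10 and Plaur) and 0 lower, against 5.52% of all genes higher and 1.62% lower. DESeq2 called 2 members, F7 and F10, among 1.02% of genes called. In FPKM, all LPS libraries were above all control libraries for 3 of the 8 members (F7, F10 and Plaur), against 4% of all genes, and below them for 0, against 3.92%. The median log2 fold change of the 8 members was 0.47, against -0.04 over all genes tested. With LPS replicate 1 left out, F10, F7 and Plaur had 1.42, 0.77 and 0.24. The other tested members then had -0.01 (Plat), -0.03 (Procr), -0.16 (F3), -0.20 (Thbd) and -0.21 (Plau). The positive median thus rested on that library. Without LPS replicate 1, 2 members (F7 and F10) had an unadjusted p under 0.05 among the genes that were higher, against 3.70% of all genes.

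In LPS+bLF lungs against LPS lungs, F7 and F10 were lower, at 0.635 and 0.524 of the LPS level, without overlap between the groups. Plat and F3 were at 0.457 and 0.627 of the LPS level, values that rested on LPS replicate 1 in groups that overlapped. None of the 8 tested members was called by edgeR here, where again 0% of genes were called, and DESeq2 called 0 members among 0.0548% of genes. Lower at an unadjusted p under 0.05 were 3 of the 8 members, against 3.65% of all genes, and higher were 0, against 3.27%. In FPKM, all LPS+bLF libraries were below all LPS libraries for 2 of the 8 members (F7 and F10), against 4.91% of all genes, and above them for 0, against 4.15%. The median log2 fold change of the members was -0.48, against -0.02 over all genes. With LPS replicate 1 left out, F10, F7, Thbd, Plat and F3 had -1.04, -0.49, -0.49, -0.27 and -0.04. Procr, Plaur and Plau then had 0.06, 0.18 and 0.38. The size of this median thus rested in part on that library. Without LPS replicate 1, F10 was the 1 member with an unadjusted p under 0.05, against 3.84% of all genes that were lower, and F7, F10 and Thbd were the 3 members lower without overlap in FPKM, against 24.8% of all genes. This comparison uses the same LPS libraries as the first, and 4 of the 5 comparisons use the same control libraries, so opposite or like signs between them are not independent.

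**Figure D2:**
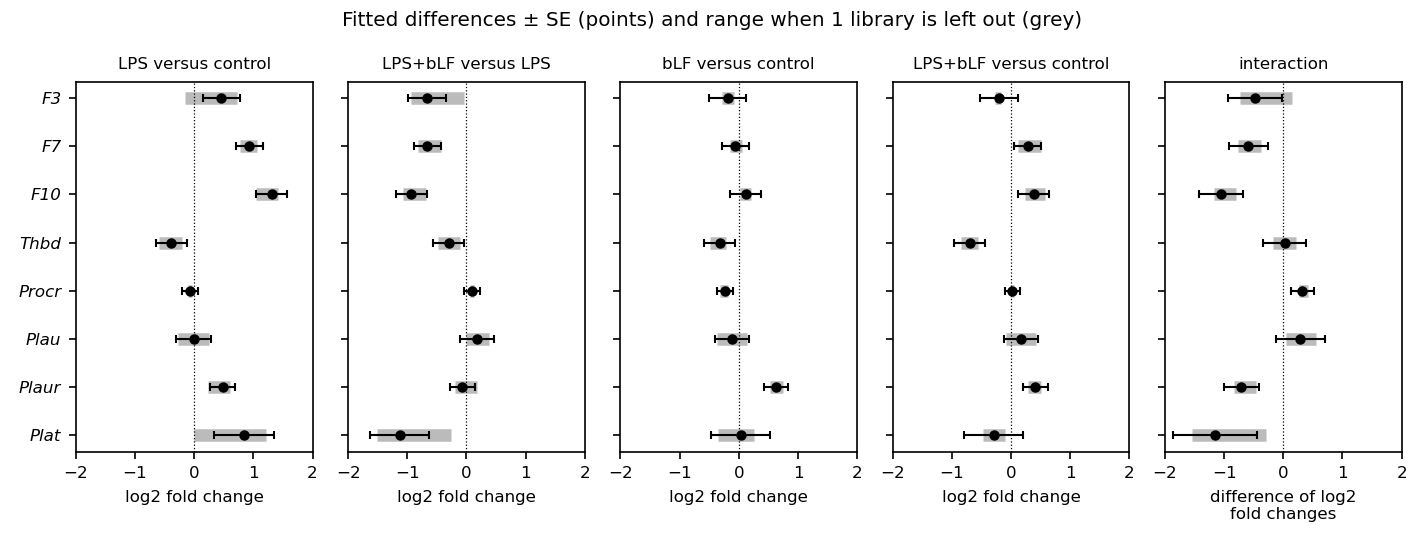
Points are the edgeR log2 fold changes of the 8 tested members (x axis; the right panel is the difference of log2 fold changes) with bars of ± SE, and grey bands span the values obtained when each of the 12 libraries is left out in turn. F10 stays above 0 in LPS versus control and below 0 in LPS+bLF versus LPS under every omission, while F3 crosses 0 in LPS versus control and in the interaction.

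F3, which encodes tissue factor, the cell-surface starter of coagulation, was at 20.5, 19.3 and 22.2 FPKM in LPS+bLF lungs, 47.8, 25.3 and 20.8 FPKM in LPS lungs, 23.3, 17.4 and 23.1 FPKM in bLF lungs, and 26.9, 21.8 and 25.6 FPKM in control lungs. LPS replicate 1 was the highest of the 12, and the other LPS libraries lay inside or just below the control range, so these groups overlapped. The LPS versus control log2 fold change was 0.46 ± 0.32 (SE; edgeR adjusted p = 0.686) and turned to -0.16 ± 0.15 without LPS replicate 1. Against LPS lungs, LPS+bLF lungs had a log2 fold change of -0.67 ± 0.32 (edgeR adjusted p = 0.689), which was -0.04 ± 0.15 without that library. In LPS replicate 1 the summed mesothelial markers were also high, at 107 FPKM against 44.9 and 8.02 FPKM in the other LPS lungs, and so were the neutrophil markers, at 1540 FPKM against 265 and 318 FPKM. Most of that neutrophil sum was S100a9 and Retnlg, at 607 and 594 FPKM. These and Camp and Mmp8 exceeded every control there. S100a8, Csf3r, Cxcr2 and Ly6g lay within the control range in all LPS lungs, at no more than 225, 12.0, 2.61 and 1.06 FPKM. The part of either marker set in the F3 value was not tested. Against control lungs, LPS+bLF lungs had a log2 fold change of -0.21 ± 0.32 and bLF lungs of -0.19 ± 0.32 (edgeR adjusted p = 0.88 and 1). Both groups overlapped the controls in FPKM but not in TMM-scaled CPM, which are counts scaled to library size with composition taken into account. On that scale F3 was at 32.7, 32.9 and 37.0 in LPS+bLF lungs, 37.1, 28.2 and 38.4 in bLF lungs, and 40.4, 38.7 and 39.6 in control lungs. The share of all genes without overlap on that scale is not given here. In FPKM, 7.80% of all genes were lower without overlap in LPS+bLF versus control and 5.74% in bLF versus control. F3 is at chr3:121723537-121735052 (GRCm38).

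F7, the gene of the circulating protease that tissue factor activates, was at 11.7, 6.43 and 12.2 FPKM in LPS+bLF lungs, 16.4, 14.4 and 16.0 FPKM in LPS lungs, 8.86, 7.88 and 7.64 FPKM in bLF lungs, and 10.45, 7.30 and 8.16 FPKM in control lungs. All 3 LPS libraries were above the other 9. LPS lungs averaged 15.6 ± 1.07 FPKM and control lungs 8.64 ± 1.63 FPKM (SD, n = 3 each). The LPS versus control log2 fold change was 0.93 ± 0.23 (SE; edgeR adjusted p = 0.301, DESeq2 adjusted p = 0.0311). For LPS+bLF versus LPS it was -0.66 ± 0.23 (edgeR adjusted p = 0.689, DESeq2 adjusted p = 0.42). LPS+bLF replicate 2 had the lowest F7 of all 12 libraries, and the other LPS+bLF lungs lay between the LPS and the control ranges.

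F10, the gene of the protease that generates thrombin, was at 3.08, 1.79 and 2.96 FPKM in LPS+bLF lungs, 3.57, 4.61 and 6.59 FPKM in LPS lungs, 1.97, 2.46 and 2.16 FPKM in bLF lungs, and 2.13, 1.74 and 2.30 FPKM in control lungs. As for F7, the 3 LPS libraries were above the other 9, and LPS+bLF replicate 2 was down among the controls. LPS lungs averaged 4.92 ± 1.53 FPKM and control lungs 2.06 ± 0.287 FPKM (SD, n = 3 each), on 136, 183 and 277 against 81, 70 and 95 estimated counts. The LPS versus control log2 fold change was 1.31 ± 0.26 (SE; edgeR adjusted p = 0.133, DESeq2 adjusted p = 0.000645), with the 44th smallest p of the 13735 genes. It was 1.42 ± 0.26 without LPS replicate 1 (edgeR adjusted p = 0.0748). LPS+bLF versus LPS gave -0.93 ± 0.26 (edgeR adjusted p = 0.689, DESeq2 adjusted p = 0.171), the 43rd smallest p of that comparison. Relative to control lungs, LPS+bLF lungs stood at 0.38 ± 0.26 for F10 and 0.28 ± 0.23 for F7 (edgeR adjusted p = 0.832 for both).

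F7 and F10 are neighbours on mouse chromosome 8. F7 spans chr8:13025506-13035809 and F10 chr8:13037308-13056676 (GRCm38), with 1498 bases between them. Over the 12 libraries their log2(FPKM + 1) values had a Pearson r of 0.87, and 0.90 without LPS replicate 1, the highest of the pairs of tested members; this is a description over libraries that share groups. The ratio of F10 to F7 ranged from 0.218 to 0.411 in LPS lungs and from 0.204 to 0.282 in control lungs. Beyond F10 lies Proz, the gene of the anticoagulant protein Z, after 3907 bases. Proz was below the level for testing, at 0.42, 0.31 and 0.43 FPKM in LPS+bLF lungs, 0, 0.61 and 0.79 FPKM in LPS lungs, 0.24, 0.25 and 0.39 FPKM in bLF lungs, and 0.26, 0.29 and 0.37 FPKM in control lungs. Its LPS libraries thus included both the highest values and the 0 of replicate 1. The next genes outside coagulation, Pcid2 and Cul4a, had LPS versus control log2 fold changes of 0.29 ± 0.26 and -0.02 ± 0.12 (edgeR adjusted p = 0.706 and 0.94).

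**Figure D3:**
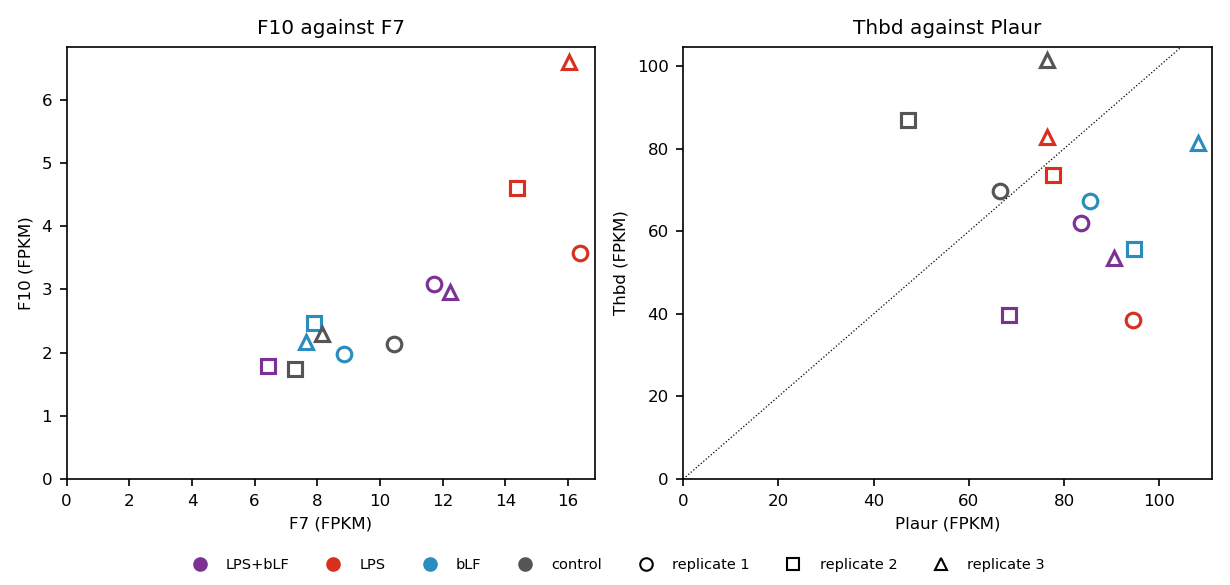
Each point is 1 of the 12 libraries, with F10 against F7 on the left and Thbd against Plaur on the right (both axes in FPKM, starting at 0); colours are groups, symbols are replicates and the dotted line marks equal levels. On the left the 3 LPS lungs lie apart at the upper right; on the right the 3 control lungs lie above the line of equal levels, and 8 of the other 9 lungs lie below it.

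The promoters of F7 and F10 are shown because these neighbouring genes had their highest values in the same 3 libraries, and that of F3 for contrast, because its values did not follow theirs. Each runs 5′ to 3′ on the plus strand from 250 bases before to 50 bases after a RefSeq transcript start (GRCm38.p6): F7 at chr8:13025784-13026083, which lies inside the annotated span of the gene, F10 at chr8:13037058-13037357 and F3 at chr3:121723287-121723586. Capitals mark the HNF4 core on the minus strand in F7, an NF-kB match on the minus strand in F10 and the AP-1 matches in F3.
F7: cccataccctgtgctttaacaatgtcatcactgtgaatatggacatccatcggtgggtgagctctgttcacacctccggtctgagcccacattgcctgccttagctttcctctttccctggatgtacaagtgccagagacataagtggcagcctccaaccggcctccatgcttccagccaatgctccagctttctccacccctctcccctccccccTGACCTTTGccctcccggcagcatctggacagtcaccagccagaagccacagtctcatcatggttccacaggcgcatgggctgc
F10: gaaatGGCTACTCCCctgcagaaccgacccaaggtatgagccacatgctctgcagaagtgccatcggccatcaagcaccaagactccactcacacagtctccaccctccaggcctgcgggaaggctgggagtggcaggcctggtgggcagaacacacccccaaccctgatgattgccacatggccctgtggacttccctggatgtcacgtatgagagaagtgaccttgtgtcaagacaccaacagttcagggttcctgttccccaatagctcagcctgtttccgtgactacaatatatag
F3: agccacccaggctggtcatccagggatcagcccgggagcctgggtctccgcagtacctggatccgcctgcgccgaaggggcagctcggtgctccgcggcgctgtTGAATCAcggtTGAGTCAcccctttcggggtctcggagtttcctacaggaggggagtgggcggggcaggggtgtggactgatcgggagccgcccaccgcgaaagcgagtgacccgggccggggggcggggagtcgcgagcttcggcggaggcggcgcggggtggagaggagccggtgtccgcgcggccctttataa
A set of 5 motifs was searched on both strands: HNF4 core CAAAGGTCA, AP-1 TGANTCA, NF-kB (GGGA and CC with any 4 letters between them), PU.1 core GAGGAA and GC box GGGCGG. Positions are those of the leftmost letter, counted from the transcript start. The HNF4 core, read as TGACCTTTG at position -34 of F7, was in 0.478% of 32851 RefSeq promoters of the same length, and in none of the promoters of the other 5 members in the table. HNF4 is a nuclear receptor known for driving liver genes, coagulation factors among them. The NF-kB letters GGCTACTCCC at position -245 of F10 are of a kind found in 20.7% of promoters. Such letters were also in the promoters of F5, Procr, Plaur and F3. F3 held TGAATCA at -146 and TGAGTCA at -135, letters of a kind found in 7.81% of promoters, and also 3 GC boxes and a pair of NF-kB matches that are not capitalised. No capitalised match overlaps another match. AP-1 letters were also in the promoters of Procr and Plaur, and PU.1 letters, the core of a myeloid factor's site, in those of Plaur and F7 (28.3% of all promoters). The table held promoters for 6 of the 9 genes. Thbd, Plau and Plat are named only.

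Liver is the known main source of the plasma factors VII and X, and macrophages are known to make both. Alb, the defining hepatocyte transcript, was at no more than 0.65 FPKM in any library. The 6 hepatocyte markers summed to 21.5 to 47.3 FPKM in LPS+bLF lungs and 13.4 to 21.3 FPKM in LPS lungs. They summed to 18.4 to 34.5 FPKM in bLF lungs and 19.9 to 27.6 FPKM in control lungs. Nearly all of each sum was Serpina1b, with group means of 30.9, 17.9, 23.8 and 23.8 FPKM in that order. The 8 markers of monocytes and interstitial macrophages summed to 94.6 to 140 FPKM in LPS+bLF lungs, 115 to 218 FPKM in LPS lungs, 103 to 114 FPKM in bLF lungs and 77.8 to 122 FPKM in control lungs, with no marker at 0 in every library. All 8 were higher in the LPS versus control fit, 5 of them at an unadjusted p under 0.05, against 5.52% of all genes, and all 8 were lower in LPS+bLF versus LPS, 3 of them at that level, against 3.65% of all genes. Among them, the macrophage gene Ms4a7 was at 2.78, 2.55 and 3.61 FPKM in LPS+bLF lungs, 5.31, 6.60 and 7.61 FPKM in LPS lungs, 1.64, 0.94 and 1.34 FPKM in bLF lungs, and 1.14, 1.33 and 1.77 FPKM in control lungs. Like F7 and F10, Ms4a7 had its 3 highest values in the LPS lungs, as did the markers Adgre1 and Itgam. Csf1r, C1qb, Ccr2, Ly6c2 and Cx3cr1 did not. The 8 alveolar macrophage markers summed to 363 to 389 FPKM in LPS+bLF lungs, 472 to 681 FPKM in LPS lungs, 335 to 479 FPKM in bLF lungs and 344 to 485 FPKM in control lungs. Car4 made up much of these sums, with group means of 213, 206, 250 and 254 FPKM in that order. Marco averaged 83.7 FPKM in LPS lungs, with a lowest value of 0.38 and a median of 1.31 FPKM there. In the LPS versus control fit 6 of the 8 were higher and 2 lower, and 4 had an unadjusted p under 0.05. Chil3 was the 1 higher without overlap in FPKM, against 4% of all genes. The part of hepatocytes, monocytes and macrophages in the F7 and F10 values was not tested. In whole lung, more cells of a type and more RNA per cell cannot be told apart.

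F5, the gene of the factor X cofactor, was barely detected. Its estimated counts were 15, 7 and 3 in LPS+bLF lungs, 0, 11 and 14 in LPS lungs, 14, 4 and 31 in bLF lungs, and 8, 18 and 19 in control lungs. Summed over a group these are 25, 25, 49 and 45 counts, with exact 95% Poisson intervals of 16.2 to 36.9 for both LPS groups, 36.3 to 64.8 for bLF and 32.8 to 60.2 for control, which cover counting error only. The 0 in LPS replicate 1 allows up to 0.1795 CPM, which are counts scaled to the library total. At this depth the groups overlap library by library, and no fold change is given. F5 is at chr1:164151835-164220277.

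Thbd, whose product redirects thrombin toward protein C, was at 62.1, 39.8 and 53.6 FPKM in LPS+bLF lungs, 38.4, 73.7 and 82.8 FPKM in LPS lungs, 67.3, 55.8 and 81.4 FPKM in bLF lungs, and 69.7, 86.9 and 101 FPKM in control lungs. The controls held the highest value, and all 3 LPS+bLF lungs were below the lowest control. LPS+bLF lungs averaged 51.8 ± 11.3 FPKM and control lungs 86.0 ± 15.9 FPKM (SD, n = 3 each). The log2 fold change of LPS+bLF versus control was -0.70 ± 0.26 (SE; unadjusted p = 0.0222, edgeR adjusted p = 0.832), a level of 0.616 of control. LPS versus control gave -0.39 ± 0.26 and bLF versus control -0.32 ± 0.26, with edgeR adjusted p = 0.686 and 1, and both of these groups overlapped the controls. LPS+bLF versus LPS gave -0.30 ± 0.26 (edgeR adjusted p = 0.804). LPS replicate 1 had the lowest Thbd in FPKM. Without it LPS versus control was -0.20 ± 0.24 and LPS+bLF versus LPS -0.49 ± 0.24 (edgeR adjusted p = 1 and 0.515), and the LPS+bLF and LPS lungs were then without overlap. Thbd is at chr2:148404471-148408188.

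Procr, the gene of the endothelial protein C receptor, was at 12.0, 10.7 and 11.8 FPKM in LPS+bLF lungs, 8.58, 12.2 and 11.6 FPKM in LPS lungs, 9.63, 9.26 and 10.7 FPKM in bLF lungs, and 12.4, 10.4 and 12.4 FPKM in control lungs. It was the steadiest member, and every group overlapped the controls in FPKM. Its log2 fold changes were -0.07 ± 0.13 for LPS versus control, 0.09 ± 0.13 for LPS+bLF versus LPS, -0.23 ± 0.13 for bLF versus control and 0.02 ± 0.13 for LPS+bLF versus control, with edgeR adjusted p between 0.831 and 1. In TMM-scaled CPM, which take account of the Scgb1a1 share of control replicate 2, the bLF lungs were at 11.8, 11.6 and 13.8 and the control lungs at 14.4, 14.2 and 14.8, without overlap. The share of all genes without overlap on that scale is not given here, and in FPKM 5.74% were lower without overlap in this comparison. Procr is at chr2:155751125-155755478.

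Thbd and Procr are expressed chiefly by endothelium. The 8 endothelial markers summed to 887 to 1170 FPKM in LPS+bLF lungs, 1100 to 1830 FPKM in LPS lungs, 1110 to 1320 FPKM in bLF lungs and 982 to 1280 FPKM in control lungs, and none was at 0 everywhere. In LPS+bLF versus control, 6 of the 8 were lower. At an unadjusted p under 0.05 there was 1 of the 8, against 2.18% of all genes lower and 2.63% higher. Kdr and Ptprb were the 2 lower without overlap in FPKM, against 7.80% of all genes. Kdr was at 19.0 to 25.9 FPKM in LPS+bLF lungs and 27.7 to 36.4 FPKM in control lungs. Ptprb was at 15.6 to 26.3 and 27.8 to 38.4 FPKM. Cldn5 made up much of the sums, with means of 572 and 559 FPKM in these groups. The sum of LPS replicate 1, 1830 FPKM, was mostly Cldn5 at 1349 FPKM, while its Cdh5, Kdr and Emcn were the lowest of the 12 libraries, at 28.3, 6.17 and 29.3 FPKM. The same library had the lowest Thbd and Procr in FPKM, although not in TMM-scaled CPM, where LPS+bLF replicate 2 was lowest for Thbd at 145 and bLF replicate 2 for Procr at 11.6. Over the libraries, Thbd and Procr had a Pearson r of 0.53, and 0.29 without that library. The part of endothelial content in the Thbd values was not tested.

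Plau, the urokinase gene, was at 15.5, 18.9 and 17.4 FPKM in LPS+bLF lungs, 16.3, 17.8 and 11.5 FPKM in LPS lungs, 19.1, 12.6 and 12.4 FPKM in bLF lungs, and 22.5, 8.96 and 18.1 FPKM in control lungs. The control libraries held both the highest and the lowest of the 12 values, and all groups overlapped. Log2 fold changes were -0.01 ± 0.29 for LPS versus control, 0.18 ± 0.29 for LPS+bLF versus LPS, -0.11 ± 0.29 for bLF versus control and 0.17 ± 0.29 for LPS+bLF versus control, all with edgeR adjusted p of at least 0.892. Each of the 4 signs turned with 1 library left out, and that of LPS versus control also with the scaling. Plau is at chr14:20836662-20843388.

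Plaur, the gene of the receptor that holds urokinase at the surface of myeloid, epithelial and other cells, was at 83.6, 68.5 and 90.5 FPKM in LPS+bLF lungs, 94.4, 77.7 and 76.5 FPKM in LPS lungs, 85.5, 94.7 and 108 FPKM in bLF lungs, and 66.6, 47.2 and 76.4 FPKM in control lungs. All 3 bLF lungs and all 3 LPS lungs were above the highest control, the lowest LPS lung by 0.1 FPKM, and LPS+bLF lungs overlapped the controls. In bLF versus control the log2 fold change was 0.63 ± 0.21 (SE; unadjusted p = 0.0127, edgeR adjusted p = 1), with bLF lungs at 96.1 ± 11.4 FPKM and control lungs at 63.4 ± 14.9 FPKM (SD, n = 3 each). Its p was the 28th smallest of the 13735 in that comparison. LPS versus control gave 0.48 ± 0.21 (edgeR adjusted p = 0.684), or 0.24 ± 0.18 without LPS replicate 1. LPS+bLF versus control gave 0.41 ± 0.21 (edgeR adjusted p = 0.832), and LPS+bLF versus LPS -0.07 ± 0.21 (edgeR adjusted p = 0.962). In TMM-scaled CPM, LPS lungs were at 142, 90.7 and 94.7 and control lungs at 78.0, 64.9 and 92.0, which overlap, while bLF lungs were at 105, 119 and 140, still above the controls. Plaur is at chr7:24460937-24475970.

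Plat, the gene of tissue-type plasminogen activator, was at 3.48, 2.66 and 2.5 FPKM in LPS+bLF lungs, 10.2, 2.80 and 4.62 FPKM in LPS lungs, 2.48, 3.17 and 5.21 FPKM in bLF lungs, and 2.70, 3.34 and 4.81 FPKM in control lungs. As for F3, LPS replicate 1 was the highest library, and the groups overlapped. LPS versus control gave a log2 fold change of 0.84 ± 0.50 (SE; edgeR adjusted p = 0.685), which was -0.01 ± 0.38 without LPS replicate 1. LPS+bLF versus LPS gave -1.13 ± 0.50 (unadjusted p = 0.047, edgeR adjusted p = 0.689), which was -0.27 ± 0.38 without it. The Pearson r of F3 with Plat was 0.72 over 12 libraries and 0.04 over the 11 without LPS replicate 1. Plat is at chr8:22757722-22782848, on the chromosome of F7 and F10 but far from them.

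Set side by side, the order of the thrombomodulin and urokinase receptor mRNAs differed between groups. The ratio of Thbd to Plaur was 0.742, 0.580 and 0.593 in LPS+bLF lungs, 0.407, 0.949 and 1.08 in LPS lungs, 0.788, 0.589 and 0.753 in bLF lungs, and 1.05, 1.84 and 1.33 in control lungs. Thbd exceeded Plaur in 3 of 3 control lungs, in 1 of 3 LPS lungs and in 0 of 6 lungs given bLF. This ratio does not depend on library scaling; it was noticed in the values and is given without a test.

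In bLF versus control, 1 of the 8 tested members, Plaur, had an unadjusted p under 0.05 and was higher, against 0.714% of all genes that were higher, and 0 were lower, against 0.663%. Plaur was also the 1 member without overlap in FPKM, against 2.21% of all genes higher and 5.74% lower, and edgeR called 0% of all genes. The members' median log2 fold change was -0.09, against -0.03 over all genes. In LPS+bLF versus control, 1 of 8, Thbd, was lower at that level, against 2.18% of all genes, and 0 were higher, against 2.63%. Thbd was the 1 member without overlap in FPKM, against 7.80% of all genes lower and 3.91% higher. Again 0% of genes were called by edgeR, and the median was 0.09 against 0.00. DESeq2 called 0 members in either comparison, among 0.00737% and 0.0958% of genes.

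The interaction, which is the bLF effect in LPS-treated lungs minus the bLF effect in lungs without LPS, was most negative for Plat, F10, Plaur and F7, at -1.16 ± 0.71, -1.05 ± 0.37, -0.71 ± 0.30 and -0.59 ± 0.33 (SE, log2 scale). At an unadjusted p under 0.05 there were 2 of 8 members, F10 and Plaur, both negative, against 1.54% of all genes negative and 1.26% positive at that level, and 0% were called by edgeR. The edgeR adjusted p was 1 for each. Without LPS replicate 1 the values were -0.30 ± 0.51 for Plat, -1.16 ± 0.36 for F10, -0.46 ± 0.24 for Plaur and -0.43 ± 0.31 for F7, and F10 was the 1 member left with an unadjusted p under 0.05. F10 was lower in LPS+bLF than in LPS lungs and near equal in bLF and control lungs, with 0.12 ± 0.26 for bLF versus control. Plaur was higher in bLF than in control lungs and near equal in LPS+bLF and LPS lungs. F3 had an interaction of -0.48 ± 0.46, which turned to 0.15 ± 0.20 without LPS replicate 1. Thbd, Procr and Plau had 0.02 ± 0.37, 0.32 ± 0.19 and 0.29 ± 0.41.

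Of 47 other genes of coagulation and fibrinolysis considered here, 44 were in the files and 25 were tested; none was called by edgeR in any comparison. In LPS versus control 19 had a positive and 6 a negative log2 fold change; the median was 0.16, against -0.04 over all genes tested. Of the 25, 2 were higher at an unadjusted p under 0.05 (Proc and Serpine2), a share near the 5.52% of all genes. In LPS+bLF versus LPS 10 were higher and 15 lower, with a median of -0.10, against -0.02 over all genes tested. Here 1 was higher (Vtn) and 2 were lower (Serpine2 and F2r) at that level, with 3.27% and 3.65% of all genes as background. Of the plasminogen inhibitors, receptors and modulators, 8 were tested, of which 6 were higher in LPS versus control and 4 in LPS+bLF versus LPS. Serpine2, which encodes a protease inhibitor that blocks thrombin and urokinase, was at 41.9, 23.9 and 31.0 FPKM in LPS+bLF lungs, 57.05, 42.7 and 39.0 FPKM in LPS lungs, 32.9, 35.2 and 33.7 FPKM in bLF lungs, and 37.1, 25.4 and 35.6 FPKM in control lungs. All 3 LPS lungs were above the controls, and 1 LPS+bLF lung reached the LPS range. Its log2 fold change was 0.60 ± 0.24 in LPS versus control (edgeR adjusted p = 0.665) and -0.57 ± 0.24 in LPS+bLF versus LPS (edgeR adjusted p = 0.689), values that were 0.27 ± 0.19 and -0.24 ± 0.19 without LPS replicate 1. Anxa2, a plasminogen receptor subunit, had 0.38 ± 0.19 in the first (edgeR adjusted p = 0.684), and Lrp1, a receptor that clears proteases bound to their inhibitors, had -0.33 ± 0.19 in the second (edgeR adjusted p = 0.705). Vtn, the vitronectin gene, whose product also binds the urokinase receptor, had -0.47 ± 0.27 in the first and 0.73 ± 0.27 in the second (edgeR adjusted p = 0.685 and 0.689), or -0.21 and 0.47 without LPS replicate 1.

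Among the 7 tested anticoagulant proteins, 6 were higher in LPS versus control. Proc, the protein C gene, was at 0.81, 0.43 and 0.55 FPKM in LPS+bLF lungs, 1.15, 0.66 and 0.77 FPKM in LPS lungs, 0.44, 0.47 and 0.34 FPKM in bLF lungs, and 0.13, 0.52 and 0.47 FPKM in control lungs. The LPS lungs were above the controls at levels near the limit for testing, with a log2 fold change of 1.25 ± 0.56 (edgeR adjusted p = 0.684), or 0.83 ± 0.55 without LPS replicate 1. Pros1, the gene of its cofactor protein S, had 0.37 ± 0.20 (0.15 without that library), and Gas6, encoding a related vitamin K-dependent ligand, had 0.34 ± 0.22 (edgeR adjusted p = 0.684 and 0.686). In LPS+bLF versus LPS, 5 of the 7 were lower, with Pros1 at -0.40 ± 0.20 and Proc at -0.59 ± 0.55, which were -0.18 and -0.16 without LPS replicate 1, and Anxa5 at 0.27 ± 0.26 (edgeR adjusted p of at least 0.691). Tfpi, which encodes the inhibitor of the tissue factor and factor VII complex and was named after its values were seen, was at 12.5, 11.1 and 11.1 FPKM in LPS+bLF lungs, 8.45, 12.5 and 15.1 FPKM in LPS lungs, 12.5, 12.1 and 11.5 FPKM in bLF lungs, and 13.7, 12.95 and 14.9 FPKM in control lungs. In FPKM, all 6 lungs given bLF were below the lowest control, with log2 fold changes of -0.34 ± 0.20 for LPS+bLF and -0.25 ± 0.20 for bLF against control (edgeR adjusted p = 0.832 and 1). Of all genes, 7.80% and 5.74% were lower without overlap in these comparisons. In TMM-scaled CPM both overlapped the controls, with 17.8, 16.0 and 14.2 in LPS+bLF lungs, 16.5, 17.4 and 17.2 in bLF lungs, and 16.7, 22.2 and 22.0 in control lungs.

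Of the other coagulation factors, 17 were in the files and 7 were tested. Vwf, which encodes the von Willebrand factor of endothelium and platelets, had 0.79 ± 0.45 in LPS versus control and -0.80 ± 0.45 in LPS+bLF versus LPS, values that turned to -0.17 ± 0.21 and 0.16 ± 0.21 without LPS replicate 1. Ggcx, the vitamin K-dependent carboxylase that factors VII and X need, had -0.33 ± 0.33 in the first, or 0.01 ± 0.19 without that library, and Lman1, a carrier for factor V export, -0.10 ± 0.11 in the second. Kng2, a kininogen gene, was at 3.01 FPKM in LPS+bLF replicate 2, 0.22 FPKM in LPS replicate 1, 2.36 FPKM in bLF replicate 1 and 3.97 FPKM in control replicate 1, and at 0 in the other 8 libraries; its 3 highest libraries are those with the brown fat markers. Of the 3 tested protease-activated receptors, F2r, the main thrombin receptor gene, had 0.82 ± 0.43 and -1.03 ± 0.43 in the 2 comparisons, and 0.00 and -0.21 ± 0.26 without LPS replicate 1. F2rl3 and F2rl1, 2 more receptors of this family, had 0.76 ± 0.51 and -0.54 ± 0.40 in LPS versus control, and 0.05 ± 0.50 and 0.32 ± 0.40 in LPS+bLF versus LPS, where both signs turned without LPS replicate 1.

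All 8 transcription factors known to act on F3, Thbd or Plau were tested, and 7 of them were lower in LPS+bLF than in LPS lungs, 0 at an unadjusted p under 0.05. Klf4, an endothelial factor known to induce Thbd, had -0.58 ± 0.30 (-0.31 without LPS replicate 1), Fos -1.21 ± 0.65 and Jun -0.30 ± 0.17, the last a pair that forms AP-1 (edgeR adjusted p between 0.692 and 0.705). In LPS versus control 3 of the 8 were higher and 5 lower, with Hif1a at 0.80 ± 0.40, Nfkb1 at 0.20 ± 0.15 and Egr1 at -0.47 ± 0.66 (edgeR adjusted p of at least 0.684). Hif1a was -0.02 without LPS replicate 1, and Egr1 was 0.52 without control replicate 1. In LPS+bLF versus control, 2 of the 8 factors were lower at an unadjusted p under 0.05, against 2.18% of all genes. These were Klf4 at -0.68 ± 0.30 and Jun at -0.42 ± 0.17, with Fos at -1.38 ± 0.65 (unadjusted p = 0.0438, 0.0342 and 0.0574, edgeR adjusted p = 0.832 for each); the 3 are named here after their values were seen. Klf2, the other endothelial factor known to induce Thbd, was at 384 to 479 FPKM in LPS+bLF lungs and 339 to 591 FPKM in control lungs. The part of these factors in the member values was not tested.

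**Figure D4:**
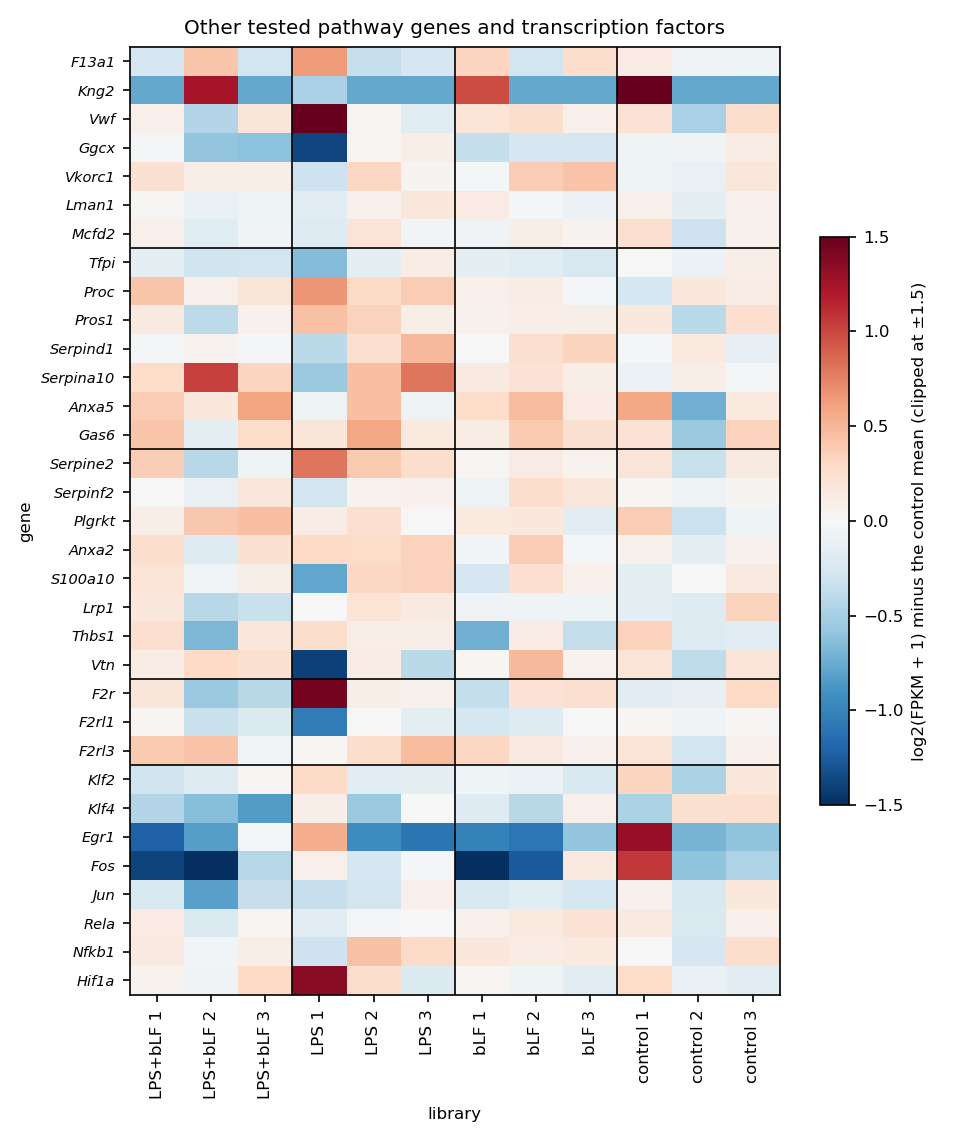
Rows are 33 tested genes of coagulation and fibrinolysis and their transcription factors, other than the members, grouped by role, and columns the 12 libraries by group; colour is log2(FPKM + 1) minus the mean of the control libraries, clipped at 1.5 in either direction. F2r, Vwf and Hif1a are dark red in LPS replicate 1 and paler in the other LPS lungs, and Kng2 is red in the 3 libraries with brown fat markers.

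The genes whose log2(FPKM + 1) values most resembled those of each member over the 12 libraries are given as a description, by Pearson r with all libraries and then without LPS replicate 1. For F7 these were Fcrlb at 0.94 and 0.92, Cd163l1 at 0.93 and 0.92, and Ch25h at 0.92 and 0.92. For F10 they were H2-T23 at 0.93 and 0.93, Naip5 at 0.92 and 0.92, and Fpr2, a formyl peptide receptor of myeloid cells, at 0.92 and 0.92. All of these averaged highest in LPS lungs; Fpr2 was at 11.5, 20.4, 9.46 and 9.10 FPKM on average in LPS+bLF, LPS, bLF and control lungs. Thbd was followed by Adgrf5, an adhesion receptor gene, at 0.98 and 0.98, Zfp383 at 0.98 and 0.97, and She at 0.97 and 0.96. Adgrf5 averaged 34.8 FPKM in LPS+bLF, 42.3 in LPS, 44.3 in bLF and 53.6 in control lungs, the same order as Thbd. Plaur was followed by Slc3a2, an amino acid transporter subunit gene, at 0.92 and 0.95, Zfp358 at 0.88 and 0.90, and Smim3 at 0.88 and 0.89. The neighbours of F3 were Ackr3 and Atp2b1, both at 0.95, which were 0.75 and 0.76 without LPS replicate 1. Those of Plat were Hilpda, Adipor1 and F2r at 0.94, 0.92 and 0.92, which were 0.81, 0.77 and 0.74 without it. Procr was followed by Zfp758 at 0.95, Lmcd1 at 0.92 and Isg20l2 at 0.91, and Plau by 4930402H24Rik at 0.93, Hars2 at 0.91 and Ddx1 at 0.91.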

How the data were processed

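Per the submitters' processing notes, HISAT2 2.1.0, RSEM 1.2.8 and the build mm10 were used, with no role stated. Per the file headers, the authors deposited a count and an FPKM for each gene; the authors' counts are taken to be estimated counts, since 4.12 to 5.91% of them were not whole, and were rounded here. Read length, strand and filters are not given in the sources used here. Genes with at least 0.5 FPKM in 3 of 12 libraries were fitted together with edgeR 4.0.16 (quasi-likelihood, TMM factors, 4 group means, 8 residual degrees of freedom), two-sided, with Benjamini-Hochberg adjustment over all 13735 genes and calls under 0.05; log2 fold changes and their SE come from this fit. DESeq2 1.42.0 and limma 3.58.1 on log2(FPKM + 1) or log2(FPKM + 0.1), RLE factors, no filter, only the groups compared, a replicate block and leaving out each library were alternatives. The code was tested on simulated data. The 9 members, the lists and the tests were chosen with earlier results of these data known. Of each list other than the members, the 3 genes with the smallest p in LPS versus control and in LPS+bLF versus LPS were named, and others are marked or given without a test. Some genes that these rules name are not reported here and are left out of the list counts. Coordinates and promoters are RefSeq GRCm38.p6, matched by gene ID for 17869 of 17920 genes. Replicate libraries within a group differed by more than sampling noise.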

Additional observations from a re-analysis of the deposited data

How the results depend on the processing

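The interaction has no fit of only the groups compared, since it uses all 4 groups. For the 8 tested members, 719 of 752 alternative values kept their sign and their side of the threshold. DESeq2 called 138 genes in LPS versus control, 2 of them members (F7 and F10). It called 7 genes between LPS+bLF and LPS lungs, 1 between bLF and control lungs, 12 between LPS+bLF and control lungs and 1 for the interaction, where edgeR called 0 in each; limma on log2(FPKM + 1) called 2 in LPS versus control, and edgeR 0 to 25 there as each library was left out, the 25 without LPS replicate 1. The cause was not tested. Signs also turned for values near 0. Plau in LPS versus control was 0.01 with RLE factors and with DESeq2 and 0.00 with only the groups compared, Plat in bLF versus control -0.02 and -0.03 with limma at pseudocounts of 1 and 0.1, and Procr in LPS+bLF versus control -0.03 with both.

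Leaving out each library gave these ranges where a sign turned. In LPS versus control they were -0.16 to 0.72 for F3, -0.27 to 0.25 for Plau, -0.01 to 1.22 for Plat, -0.17 to 1.11 for Vwf, -0.60 to 0.01 for Ggcx, -0.00 to 1.11 for F2r, -0.02 to 1.13 for Hif1a and -1.5 to 0.52 for Egr1. In LPS+bLF versus LPS they were -0.01 to 0.38 for Plau, -0.19 to 0.18 for Plaur, -1.12 to 0.16 for Vwf, -0.05 to 0.63 for F2rl1 and -0.18 to 0.35 for F2rl3. In bLF versus control they were -0.14 to 0.06 for F7, -0.36 to 0.14 for Plau and -0.35 to 0.25 for Plat, in LPS+bLF versus control -0.01 to 0.05 for Procr and -0.08 to 0.43 for Plau, and in the interaction -0.74 to 0.15 for F3 and -0.17 to 0.21 for Thbd.

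The replicate numbers share only a number between groups. Of 18 correlations between same-numbered libraries, from -0.694 to 0.571, 5 were over 0.1, and a library's best match had its own number in 11 of 36 cases. With the replicate block edgeR called 0 genes in every comparison, and F10 in LPS versus control was 1.29 (edgeR adjusted p = 0.285). With 3 mice per group, 70 to 277 counts for F10 and 0 to 31 for F5, differences smaller than the spread between mice were not detectable here.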
